A study of Homo sapiens and Mus musculus with 13 samples.

Results

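Imprinted genes are transcribed from only the maternal or only the paternal allele. The 10 genes described here are H19, IGF2, KCNQ1OT1, MEG3, DLK1, SNRPN, GNAS, PEG3, PEG10 and MEST, and their members in the data are the peaks of RNA:DNA hybrid maps that lay within 5 kb of them on hg19. The genes were chosen by name and position and not by any measured value. Of 325035 peaks in 6 human lists, 162 fell in these windows, which together span 549 kb.

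The hybrids were mapped in NT2 cells, a pluripotent line from a human testicular tumour, and in K562 cells, a line from a human myeloid leukaemia. DRIP-seq fragments the genome with restriction enzymes, captures hybrids with an antibody and reads their DNA, which loses the strand. DRIPc-seq reads the RNA of the captured hybrids and keeps it. The NT2 lists came from digest B (BamHI, NcoI, ApaL1, NheI, PvuII), from RNase A treatment, from RNase H treatment, from DRIPc-seq and from digest A (HindIII, EcoRI, BsrGI, XbaI, SspI). K562 was mapped by DRIP-seq, and all lists but the first used the enzymes of digest A. RNase A cuts unpaired RNA, and RNase H removes RNA paired with DNA. Each list stood for 1 sample, except DRIPc-seq with 1 list for 2 samples, so no value below has a replicate check and no p-value was computed. Peak positions alone do not let the labelled cell lines be checked against marker genes. The lists give no heights or read counts, so the depth is unknown, and they do not say which parental allele a hybrid came from.

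An R-loop forms when RNA pairs with the template DNA behind the polymerase and leaves the other DNA strand single. At many imprinted clusters a long noncoding RNA or a CpG-rich control region, methylated on only the maternal or only the paternal allele, sets which allele is read. KCNQ1OT1 and H19 are the noncoding RNAs of neighbouring clusters on chromosome 11, and KCNQ1OT1 runs antisense within the gene KCNQ1. On chromosome 14 MEG3 is the noncoding partner of DLK1, SNRPN lies in the Prader-Willi region, and GNAS has several promoters that are used by different alleles.

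Starts of these genes differed in sequence, and 3 are shown here as examples. Listed alternative starts were compared with the peak lists for GNAS, MEST and MEG3 only. RefSeq sequences of GRCh38.p14, 300 bases each with 250 before and 50 after the start, were at hand for 5 of the genes (GNAS, H19, MEG3, MEST and SNRPN). For GNAS, MEST and MEG3 the listed start with most CG dinucleotides is printed, with each CG in capitals. CG reads the same on both strands. These starts lie on the plus strand at chr20:58888930-58889229 for GNAS, chr7:130491835-130492134 for MEST and chr14:100825858-100826157 for MEG3.
GNAS: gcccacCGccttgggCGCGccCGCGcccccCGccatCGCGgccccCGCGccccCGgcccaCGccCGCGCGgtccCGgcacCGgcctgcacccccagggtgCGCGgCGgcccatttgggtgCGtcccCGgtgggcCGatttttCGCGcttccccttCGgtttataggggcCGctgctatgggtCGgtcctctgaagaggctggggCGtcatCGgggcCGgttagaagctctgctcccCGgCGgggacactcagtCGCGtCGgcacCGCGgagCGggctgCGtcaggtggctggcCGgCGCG
MEST: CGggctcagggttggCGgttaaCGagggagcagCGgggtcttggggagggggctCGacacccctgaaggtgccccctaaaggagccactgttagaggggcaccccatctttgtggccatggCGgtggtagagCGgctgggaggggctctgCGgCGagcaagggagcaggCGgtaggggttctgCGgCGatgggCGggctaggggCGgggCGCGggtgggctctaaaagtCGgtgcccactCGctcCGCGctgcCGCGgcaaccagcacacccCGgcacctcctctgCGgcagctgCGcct
MEG3: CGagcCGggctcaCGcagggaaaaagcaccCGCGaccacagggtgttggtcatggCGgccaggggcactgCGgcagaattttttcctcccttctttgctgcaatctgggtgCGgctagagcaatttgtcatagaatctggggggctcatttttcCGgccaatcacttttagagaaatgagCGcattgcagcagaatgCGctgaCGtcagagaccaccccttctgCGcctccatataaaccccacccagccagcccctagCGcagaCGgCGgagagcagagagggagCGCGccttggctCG
The GNAS start holds 43 CG, a number reached or passed by 4.98% of 35116 human promoters in the same table. The MEST start holds 25 (reached or passed by 32.0% of promoters) and the MEG3 start 19 (42.9%), where the median promoter has 14. The excess of G over C on the gene's strand, (G - C)/(G + C), was 0.18 at the MEST start, -0.04 at the GNAS start and -0.01 at the MEG3 start, and the median over all promoters was 0.01.

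Peaks were spread very unevenly over the 10 genes. The digest B, DRIPc and digest A lists had peaks at the same 5 genes: KCNQ1OT1, SNRPN, GNAS, PEG10 and MEST. The other 5, H19, IGF2, MEG3, DLK1 and PEG3, had none there. The RNase A list had peaks at all 10, the K562 list at 4 (H19, KCNQ1OT1, GNAS and MEST) and the RNase H list at 4 (H19, IGF2, KCNQ1OT1 and SNRPN). By number, the windows held 26 digest B peaks, 45 RNase A peaks, 6 RNase H peaks, 32 DRIPc peaks, 15 K562 peaks and 38 digest A peaks. When the peaks in the windows were merged over all lists, 42 separate regions resulted. Of these, 29 came from 1 list, and 17 of the 29 from the RNase A list. Peaks outside the windows were not merged. The same counts over whole lists were not made, so nothing about these genes is read from them.

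**Figure D1:**
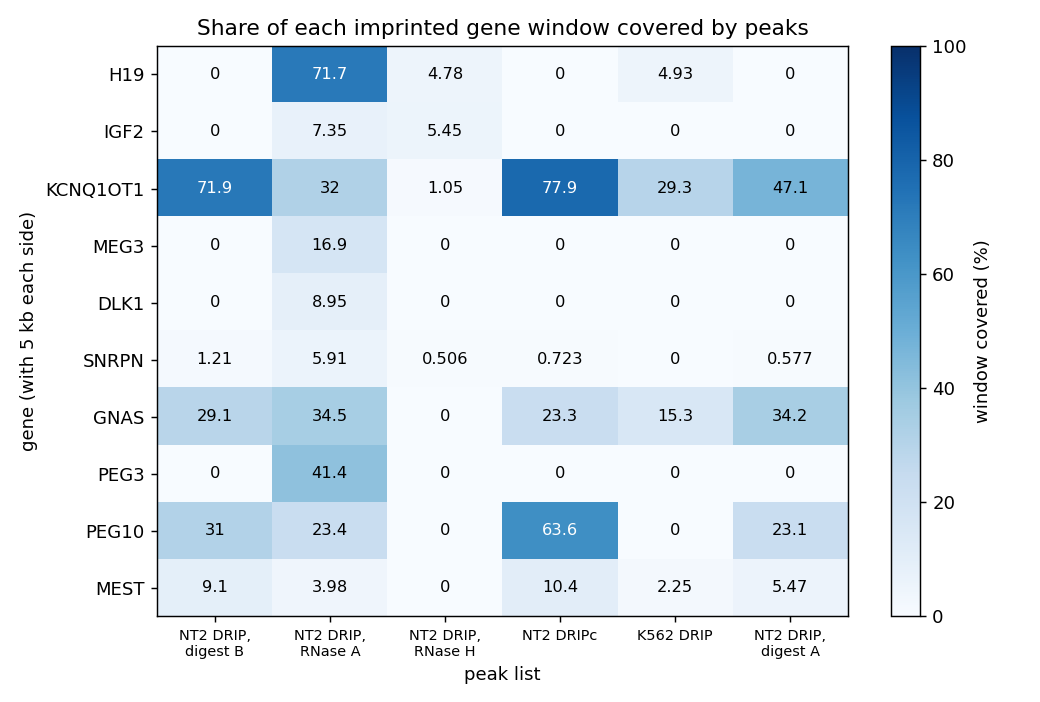
Share of each gene window (the gene with 5 kb on each side) covered by the peaks of each list, in percent, with genes down the page and lists across. KCNQ1OT1 was covered in all 6 lists, up to 77.9% in NT2 DRIPc-seq, while H19 and PEG3 were at 71.7% and 41.4% in the RNase A list and at 0% in digest A.

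Taken over the 549 kb, the windows carried more cover than the chromosomes as a whole, and KCNQ1OT1 held much of it. Whole chromosomes include stretches without genes, and cover over the windows of other genes was not computed. The difference is therefore not read as a trait of imprinted genes. Digest B peaks covered 19.8% of the windows and 6.29% of chromosomes 1 to 22, X and Y. The shares were 20.9% and 4.84% for RNase A, 21.4% and 7.23% for DRIPc-seq, 7.93% and 3.76% for K562, and 15.3% and 4.39% for digest A. In the RNase H list both were low, 0.76% of the windows (1.87% with margins of 20 kb) and 0.497% of the chromosomes. Without KCNQ1OT1 the windows were covered to 7.98% by digest B, 18.3% by RNase A, 8.54% by DRIPc-seq, 3.07% by K562 and 8.02% by digest A, so that K562 was below its own share of the chromosomes. The 500 kb on each side of the KCNQ1OT1 window were densely covered too. Digest B covered 20.4% of them, RNase A 28.1%, DRIPc-seq 14.2%, K562 25.1%, digest A 18.6% and RNase H 4.36%. The window itself was covered to 71.9% by digest B, 32% by RNase A and 77.9% by DRIPc-seq. For K562 it was 29.3%, for digest A 47.1% and for RNase H 1.05%.

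KCNQ1OT1, the noncoding RNA that silences genes of its cluster in cis, had NT2 DRIPc peaks over most of its length, and peaks over less of it in the other lists. Its 91.7 kb (chr11:2629558-2721224, minus strand) were covered to 75.1% by 13 digest B peaks (counted with the 5 kb margins, here and below), to 33.1% by 11 RNase A peaks and to 1.16% by 2 RNase H peaks. DRIPc-seq covered 83.1% with 14 peaks, K562 29.3% with 6 and digest A 48.9% with 21. The DRIPc signal followed the strand of the gene. Sense peaks made up 9 of the 14 and 77.4 kb of cover, against 5.34 kb for antisense peaks, so 93.5% of the stranded cover was sense. In each of 10 bins of up to 10 kb along the gene, sense cover was between 43.6% and 100%. Antisense cover was confined to 2 of these bins, 30 to 40 kb (17.1%) and 40 to 50 kb (18.4%) from the start. Merged over the lists, 40.8 kb in the middle of the gene (chr11:2655517-2696341) formed a single region with peaks of all 6. Merging chained peaks that need not all overlap one another. The RNase H peak of 0.321 kb met no RNase A peak and that of 0.744 kb no digest A peak, so no base lay in all 6 lists. The longest sense peak was 20.6 kb, at chr11:2655517-2676162, and the last sense peak passed the end of the gene, reaching 92.87 kb from its start.

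Around the start of KCNQ1OT1 the strand of the hybrids changed. The nearest sense peak began 1.01 kb downstream of the start and ended at 5.20 kb, while upstream of the start both peaks (-2.60 to -2.44 kb and -7.29 to -3.37 kb) were antisense to KCNQ1OT1, the strand on which KCNQ1 is read. DRIPc-seq left the start itself and the 1 kb on each side uncovered. In DRIP-seq that stretch was covered to 100% by digest B, by K562 and by digest A, and to 19.1% by RNase A. DRIP peaks across the start ran from -1.73 to 6.99 kb in digest B, from -2.91 to 2.08 kb in K562 and from -1.70 to 3.71 kb in digest A.

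**Figure D2:**
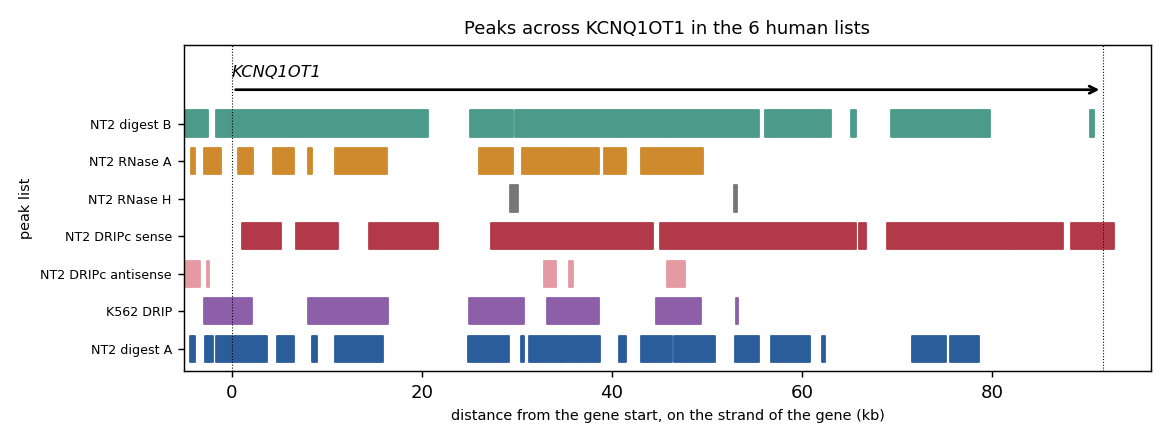
Peaks across KCNQ1OT1 in the 6 human lists. The horizontal axis is the distance in kb from the start of the gene along its own strand, each row is a list, DRIPc peaks are split into sense and antisense, and dotted lines mark both ends of the gene. NT2 DRIPc sense peaks reach the far end, while RNase A peaks end 49.54 kb and K562 peaks 53.28 kb from the start.

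Toward the far end of KCNQ1OT1 the lists parted. Over the 45.8 kb nearest the start, cover was 89.7% in digest B, 58.1% in RNase A, 73.5% in DRIPc-seq, 50.4% in K562 and 57.9% in digest A. Over the 45.8 kb farthest from it, cover was 60.6% in digest B, 8.09% in RNase A, 92.7% in DRIPc-seq, 8.19% in K562 and 39.8% in digest A. The RNase A list had no peak beyond 49.54 kb and the K562 list had 1 short one, from 53.09 to 53.28 kb. Digest B peaks reached 90.77 kb and digest A peaks 78.65 kb. Beyond 79.78 kb, however, digest B had only 1 peak, of 0.435 kb. Between 80 and 90 kb only DRIPc-seq had peaks, with 91.6% covered. The 2 RNase H peaks, 0.744 kb at 29.32 to 30.07 kb and 0.321 kb at 52.85 to 53.17 kb, both lay within DRIPc sense peaks. RNase A and K562 peaks were thus both nearly absent from the far part of the gene, where digest B, DRIPc and digest A peaks were not.

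GNAS, which encodes the stimulatory G protein alpha subunit and other products from upstream promoters, had peaks in 2 blocks with a bare stretch between them. The gene spans 71.5 kb (chr20:57414795-57486250, plus strand), and it was covered to 33.2% by 7 digest B peaks, 39.1% by 10 RNase A peaks, 26.6% by 6 DRIPc peaks, 17.4% by 6 K562 peaks and 37.9% by 9 digest A peaks. No RNase H peak lay in its window. One block of merged peaks ran from -0.20 to 17.19 kb and the other from 41.48 to 66.35 kb from the start, and both held peaks of every list other than RNase H. No list had a peak between 20 and 40 kb. In the first 10 kb of the gene digest B covered 70.8%, RNase A 79.4%, DRIPc-seq 68.0% and digest A 23%, and K562 had no peak there.

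On the stranded map, GNAS hybrids were mostly antisense. Antisense peaks numbered 4 and covered 15.0 kb, and sense peaks numbered 2 and covered 3.99 kb, so 21.0% of the stranded cover was sense. Of the antisense peaks, 3 lay from 2.23 to 10.85 kb, on the strand of GNAS-AS1, a noncoding RNA read antisense to the upstream part of GNAS. The other ran from 41.48 to 48.81 kb. Sense peaks lay farther down, from 52.33 to 55.10 kb and from 60.55 to 61.77 kb.

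Near the CG-rich GNAS start printed above, several lists had a peak. In the RefSeq table this start lies 49.43 kb beyond the first GNAS start, and at that distance from the start of the hg19 interval there were peaks in digest B (48.45 to 50.19 kb), RNase A (48.14 to 51.33 kb), K562 (48.12 to 51.31 kb) and digest A (47.78 to 51.79 kb). The antisense DRIPc peak ended 48.81 kb from the start, short of that distance but past a start with 10 CG at 48.66 kb, where DRIPc-seq, digest B, RNase A, K562 and digest A all had a peak. Distances were compared within each build and the starts were not placed on hg19. At the starts 12.97 and 13.23 kb beyond the first, RNase A, K562 and digest A had a peak and digest B did not, its nearest peak ending at 11.99 kb. At the start 1.87 kb beyond the first, with 34 CG, digest B and RNase A had a peak. At the first start itself a peak was listed in RNase A only.

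**Figure D3:**
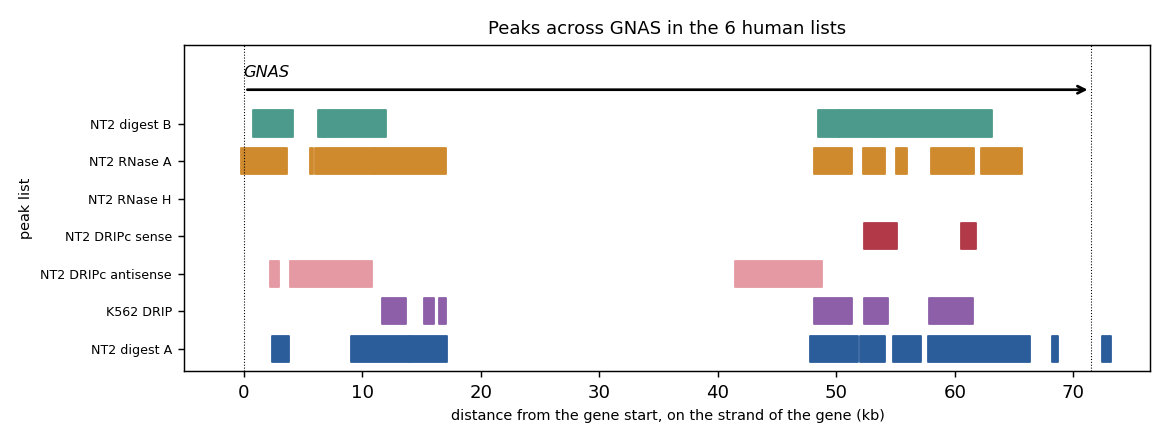
Peaks across GNAS in the 6 human lists. Axes, rows and dotted lines are as for KCNQ1OT1, with distance in kb from the start of the gene. All lists with peaks leave 20 to 40 kb bare, and antisense DRIPc peaks end at 48.81 kb while sense peaks begin at 52.33 kb.

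PEG10, a gene derived from a retrotransposon and read from the paternal allele, carried sense hybrids over its body and antisense hybrids upstream. DRIPc-seq had 4 sense peaks from 2.76 to 15.67 kb after the start (chr7:94288394-94301305) and 4 antisense peaks from -6.53 to -1.10 kb, on the strand of SGCE, its divergent neighbour. Sense peaks covered 12.2 kb of the window and antisense peaks 2.67 kb. The gene of 13.4 kb was covered to 47.0% in digest B, 37.2% in RNase A, 78.2% in DRIPc-seq and 34.1% in digest A. Neither RNase H nor K562 had a peak in the window. In the 500 kb on each side, K562 peaks covered 0.222% and digest A peaks 0.726%, so both lists were sparse there. A digest A peak of 1.1 kb began 0.03 kb after the start and touched no other list.

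MEST, which encodes a hydrolase-like protein, had hybrids at its end and, in most lists, none at its start. The merged region from 16.99 to 20.13 kb (chr7:130143039-130146179) held peaks of digest B, RNase A, DRIPc-seq, K562 and digest A. Both DRIPc peaks, 0.459 and 2.67 kb long, were on the minus strand, antisense to MEST and the strand of COPG2, which MEST meets tail to tail. Around the MEST start, the 10 kb centred on it were covered to 3.34% by RNase A and to 0% by every other list. The starts 5.15, 5.88 and 5.91 kb beyond the first had no peak at those distances in any list, the CG-rich one printed above included. These starts were not placed on hg19 either.

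SNRPN, which encodes a splicing protein, had 1 region of 3.05 kb that was found in every NT2 list. It lay 131.13 to 134.18 kb into the 155 kb interval (chr15:25199921-25202971). RefSeq lists further SNRPN starts, 6.40, 98.42 and 99.73 kb beyond the first. Their distances count from the first RefSeq start, which was not matched to the start of the hg19 interval. They therefore cannot be set beside 131.13 to 134.18 kb. Whether the region lies at a start or in the gene body was not tested. The digest B peak there was 2.00 kb long, the RNase H peak 0.835 kb and the digest A peak 0.952 kb. RNase A had peaks of 1.79 and 1.20 kb. DRIPc-seq had a peak on each strand, a sense peak of 0.994 kb at chr15:25200128-25201121 and an antisense peak of 1.02 kb at chr15:25200302-25201319. The RNase H peak, at chr15:25200342-25201176, lay wholly inside the digest A peak and spanned 87.7% of it. K562 had no peak in the window. The RNase A list had 5 further peaks, of 0.273 to 3.64 kb, that touched no other list.

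**Figure D4:**
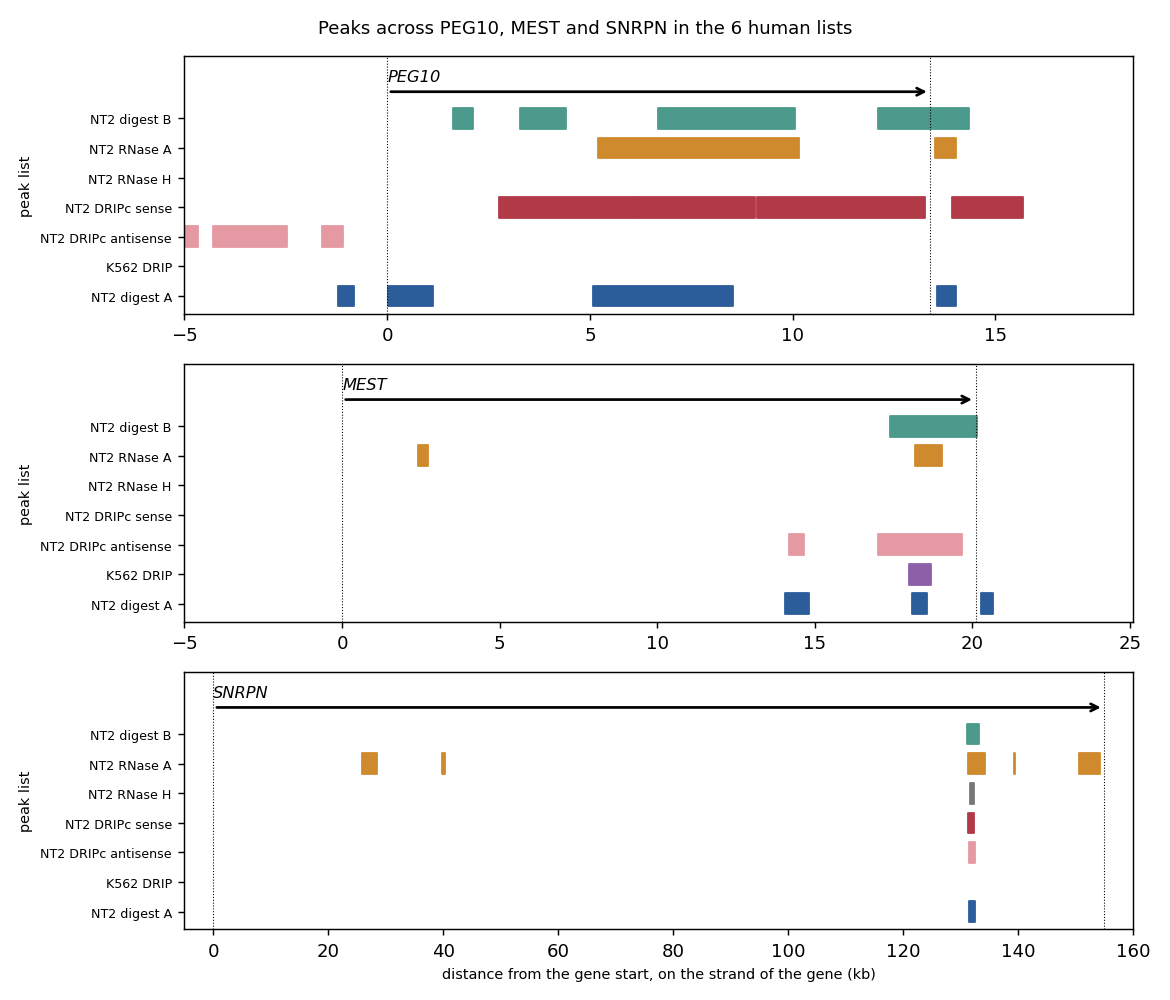
Peaks across PEG10, MEST and SNRPN in the 6 human lists, with distance in kb from the start of each gene along its strand, rows by list and dotted lines at the ends of the gene. PEG10 has sense DRIPc peaks in its body and antisense ones upstream, MEST has antisense DRIPc peaks alone, and SNRPN has 1 region with peaks in all NT2 lists.

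H19, IGF2, MEG3, DLK1 and PEG3 had peaks in the RNase A list and none in the digest B, DRIPc or digest A lists. Their windows held 13 RNase A peaks of 1043 to 4615 bp with a median of 2988 bp. Because these genes were grouped by having no digest B, DRIPc or digest A peak, none of the 13 could touch one within the windows, and nothing is read from that (65.7% of all RNase A peaks touched a digest A peak). None touched a K562 peak, and 2 touched an RNase H peak. The shares of all RNase A peaks that touch those lists were not computed, so nothing is read from these counts either. H19, a noncoding RNA read from the maternal allele, was covered to 94.8% by RNase A peaks, which ran from -3.29 to 1.32 kb and from 1.46 to 5.93 kb and included its start. Both RNase H peaks, of 0.283 and 0.322 kb, lay inside the second. PEG3, a zinc finger gene read from the paternal allele, was covered to 54.4% by 7 RNase A peaks, the first of which spanned its start from -0.18 to 3.50 kb.

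MEG3 had 2 RNase A peaks close behind its start, from 0.53 to 5.11 kb and from 5.56 to 8.55 kb, and they covered 21.7% of the gene. DLK1, which encodes a membrane protein related to Notch ligands, had 1 RNase A peak of 1.64 kb, from 4.21 to 5.84 kb. At IGF2, an insulin-like growth factor gene, the gene itself was bare in all lists. Its single RNase A peak (chr11:2145065-2147582) lay past the end of the gene and overlapped an RNase H peak (chr11:2145300-2147004). K562 peaks reached the H19 window only at its far edge, with 0.624 kb of cover. The longer of these peaks, and the longest merged region assigned to H19, was 12.7 kb (chr11:1999174-2011890) and lay 7.17 to 19.89 kb beyond the H19 start. This K562 peak also touched RNase A cover that lay outside the window and was not merged with it.

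**Figure D5:**
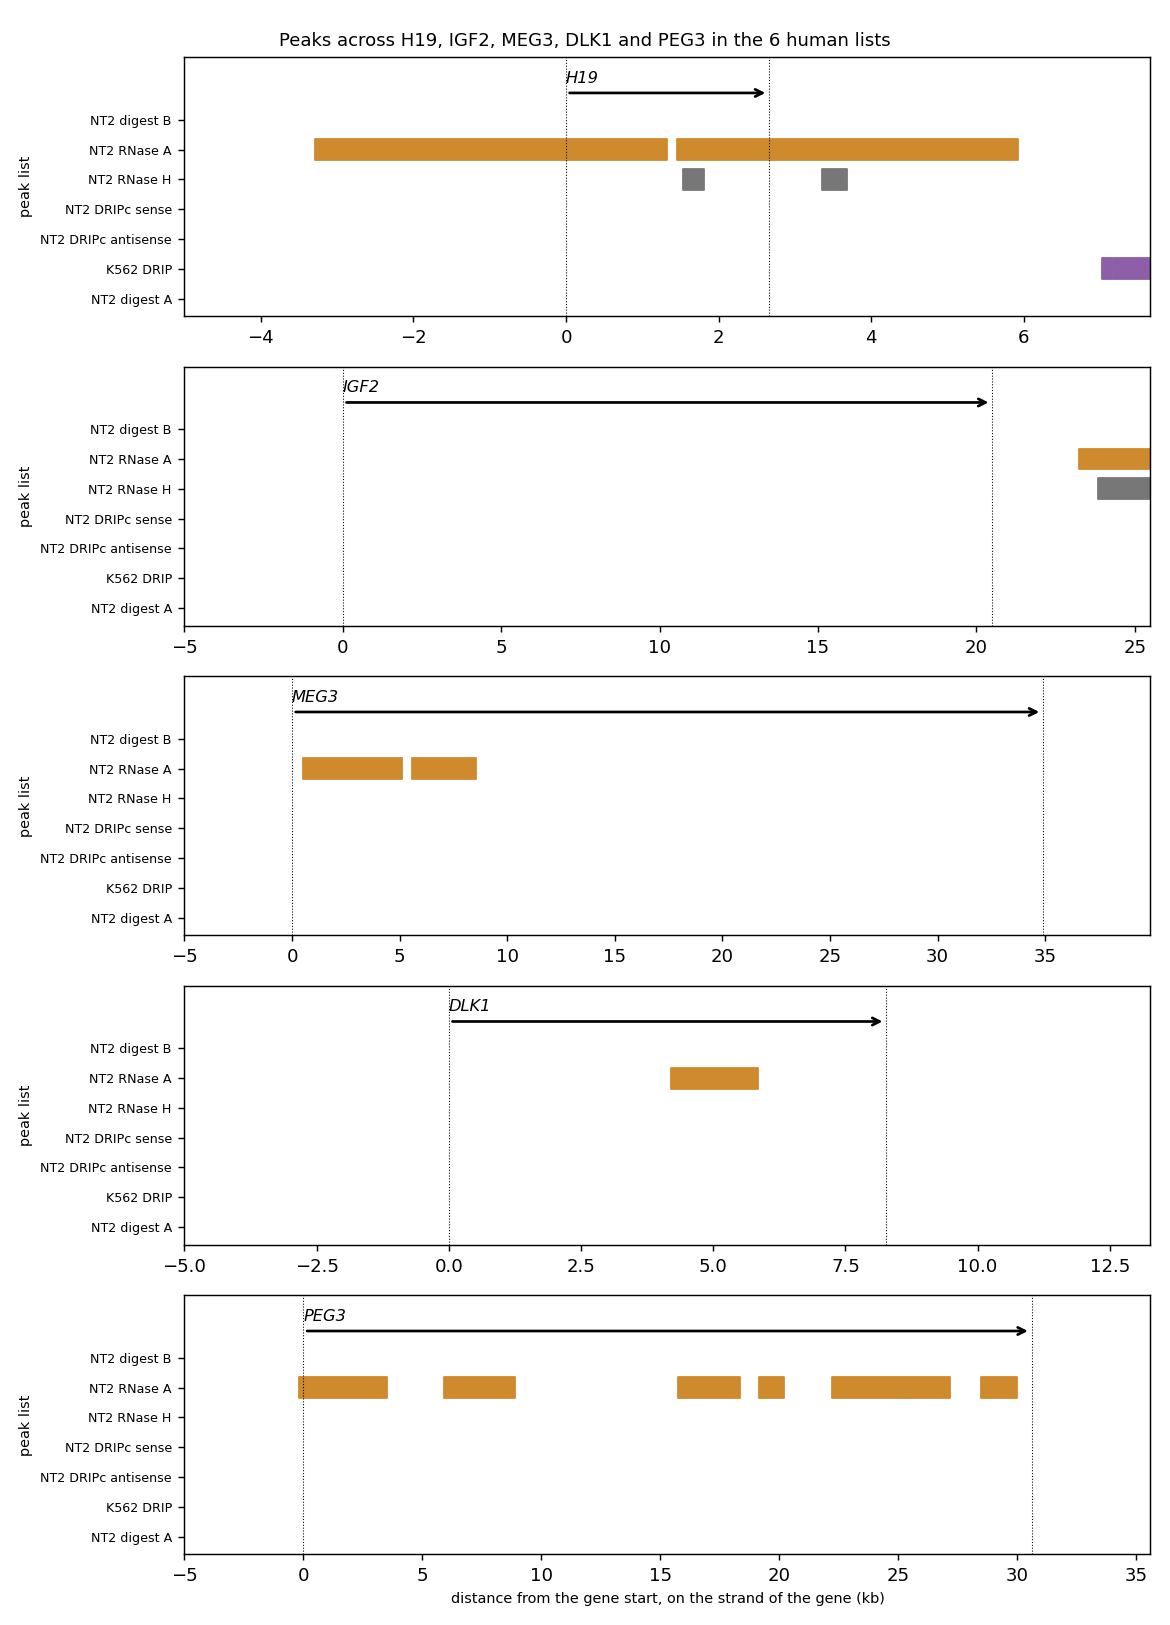
Peaks across H19, IGF2, MEG3, DLK1 and PEG3 in the 6 human lists, with distance in kb from the start of each gene along its strand, rows by list and dotted lines at the ends of the gene. RNase A peaks are present in all 5 windows, and the digest B, DRIPc and digest A rows are empty.

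The surroundings of these 5 genes were not bare in digest A. In the 500 kb on each side of the window, RNase A and digest A covered 18.3% and 13.2% at H19, 18.1% and 12.4% at IGF2, 6.77% and 4.27% at MEG3, 11.7% and 10.1% at DLK1, and 6.13% and 5.39% at PEG3. The surroundings of H19 and IGF2 share sequence, and so do those of MEG3 and DLK1. Of the RNase A peaks there, 48% touched a digest A peak at H19, 40.0% at IGF2, 46.2% at MEG3, 62.5% at DLK1 and 35.5% at PEG3. RNase H cover in these surroundings was 6.48% at H19, 6.31% at IGF2, 1.51% at MEG3, 1.52% at DLK1 and 0.112% at PEG3. Over all chromosomes it was 0.497%. With 1 RNase A library, what the enzyme did and how that library differed otherwise cannot be told apart.

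Counted as peaks, the windows were set beside the whole lists. Of 38 digest A peaks in the windows, 31 touched a digest B peak (81.6%, exact 95% interval 65.7 to 92.3%), beside 76.8% of all digest A peaks. Without KCNQ1OT1 it was 10 of 17 (58.8%, 32.9 to 81.6%), below the whole list. A DRIPc peak was touched by 33 (86.8%, 71.9 to 95.6%), beside 61.4% of the list. The number was 24 for RNase A (63.2%, 46.0 to 78.2%), beside 65.5%. For K562 it was 18 (47.4%, 31.0 to 64.2%), beside 54.7%. RNase H peaks touched 2 of the 38, 1 at KCNQ1OT1 and 1 at SNRPN (5.26%, 0.644 to 17.7%), beside 5.09%. The DRIPc share was the only one of the 5 whose interval did not hold the value of the whole list, and it rested on KCNQ1OT1, where all 21 digest A peaks met one. Without that gene 12 of 17 did (70.6%, 44.0 to 89.7%). When DRIPc peaks had to cover at least 50% of the digest A peak, 21 of 38 remained (55.3%, 38.3 to 71.4%). Intervals cover counting error only, and peaks of 1 gene are not independent.

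In the other direction, 20 of 26 digest B peaks in the windows touched a digest A peak (76.9%), beside 70.9% of the list. The count was 25 of 32 for DRIPc-seq (78.1%, 60.0 to 90.7%), beside 45.6%, an interval that did not hold the value of the whole list. By gene it was 11 of 14 at KCNQ1OT1, 6 of 6 at GNAS, 4 of 8 at PEG10, 2 of 2 at SNRPN and 2 of 2 at MEST. For K562 the count over all windows was 13 of 15 (86.7%, 59.5 to 98.3%), beside 67.3%, and the other K562 peaks were both at the edge of the H19 window. Of the 45 RNase A peaks, 23 touched a digest A peak (51.1%, 35.8 to 66.3%), beside 65.7% of the list. The 22 that did not comprised the 13 peaks at H19, IGF2, MEG3, DLK1 and PEG3 and 9 at the other genes. Of 6 RNase H peaks, 2 touched a digest A peak (33.3%, 4.33 to 77.7%), beside 38.2%.

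Across all 10 windows the DRIPc peaks were divided evenly by strand, while the covered length was not. Sense peaks were 16 of 32 (50%, exact 95% interval 31.9 to 68.1%), and sense cover was 94.6 kb against 27.1 kb antisense, or 77.7% of the stranded cover. KCNQ1OT1 set that direction: without it, sense cover was 17.2 kb against 21.8 kb antisense (44.1%), and 7 of 18 peaks were sense. By gene, the sense part was 93.5% at KCNQ1OT1, 82.1% at PEG10, 49.4% at SNRPN, 21.0% at GNAS and 0% at MEST. Of the first bases of the 10 hg19 intervals, alternative starts left aside, RNase A peaks covered those of H19, GNAS and PEG3. Digest B, K562 and digest A peaks each covered that of KCNQ1OT1, and RNase H and DRIPc peaks covered none of the 10. In the 10 kb centred on these bases, cover over the 10 genes was 14.2% for digest B, 25.8% for RNase A, 0.605% for RNase H, 12.5% for DRIPc-seq, 4.99% for K562 and 9.95% for digest A. Without KCNQ1OT1 it was 5.54% for digest B, 0% for K562 and 3.17% for digest A. For RNase A it was then 23.7%, for RNase H 0.672% and for DRIPc-seq 7.47%.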

How the data were processed

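The authors deposited peak lists for 9 groups, and the 6 human ones were used. Each row holds a chromosome and both ends of a peak in bp, without height or p-value; NT2 DRIPc-seq rows add the strand. Among the tools in the submitters' processing notes are BWA (0.6.1), TopHat2 (2.0.5) and Bismark (0.7.7), and hg19 is among the builds. How peaks were called, and against what control, was not given in the sources used here. Positions are printed counted from 1.

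A peak belonged to a gene if it touched the gene or the 5 kb on either side. Peaks were shared if they touched by at least 1 bp, with strand ignored. Shares have exact Clopper-Pearson 95% intervals (scipy 1.17.1, Python 3.11.15), and shared counts over the whole digest A list were equal to those of bedtools 2.31.1. The length of a chromosome was the end of its last human peak. The functions were tested on simulated lists. Gene strands are general knowledge and equalled those of the RefSeq table for the 5 genes it holds, and neighbouring genes were named from RefSeq. No hg19 annotation was at hand, so other imprinted genes, exons and introns were not analysed here, nor were the NT2 RNA-seq and MethylC-seq samples. All 10 genes are named, with their longest merged region, the peaks at their start and their RNase H peaks. The genes, the tests and the lists were chosen with earlier results of these data known.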

Additional observations from a re-analysis of the deposited data

How the results depend on the processing

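Of 97 values recomputed under 10 alternative settings, 76 stayed within the 95% interval of the value reported and 21 did not. For covered percents the interval treats each kb as 1 unit. No paired analysis was possible because each list is a single library or a pooled one and no test was made. The settings that leave out KCNQ1OT1 or GNAS were chosen after the data were seen.

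The share of digest A peaks in the windows found in digest B was 95.2% with the longest 50% of each list and 58.8% without KCNQ1OT1. In the RNase H list it was 0% with the longest 50%. The share found in DRIPc-seq was 55.3% when at least 50% of the peak had to be covered and 70.6% without KCNQ1OT1. With a margin of 20 kb, the windows were covered to 14.2% by digest B, 16.2% by RNase A, 1.87% by RNase H, 16.1% by DRIPc-seq and 11% by digest A. Without KCNQ1OT1 the values were 7.98% for digest B, 8.54% for DRIPc-seq, 3.07% for K562 and 8.02% for digest A, and without GNAS digest A covered 12.0%. Sense strand was 77.7% by covered length (44.1% without KCNQ1OT1), against 50% by peaks. Around the gene starts, 1 kb on each side gave 0% for RNase H and for DRIPc-seq, and leaving out KCNQ1OT1 gave 5.54% for digest B, 0% for K562 and 3.17% for digest A. Fewer genes and smaller windows enter these values by construction; the cause of the other changes was not tested. The lists give no depth, so a gene with no peak cannot be told apart from one below the threshold of a shallow library.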
